A study of Rattus norvegicus with 6 samples.

Results

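The genes described here are the vascular endothelial growth factor (VEGF) ligands and their receptors, the receptor family that the Sugen compound inhibits. The members were the entries of the deposited day 56 table named Vegfa, Vegfb, Vegfc, Vegfd, Pgf, Flt1, Kdr, Flt4, Nrp1 and Nrp2. All 10 were found among 19828 entries, comprising 5 ligands, 3 receptor tyrosine kinases and 2 neuropilin co-receptors. Vegfd stood under its older and newer symbols together (Figf and Vegfd). They were followed in total lung of Ahr-KO and wild-type (WT) Sprague-Dawley rats by bulk RNA-seq, with 3 libraries per genotype. Rats of both genotypes had received the Sugen-hypoxia (SuHx) treatment, a model of pulmonary arterial hypertension, and were sampled at day 56. No group without the treatment is compared here. The labels give neither the age of the rats, nor the kind of Ahr edit, nor whether each sample came from a separate animal, and each p-value therefore reflects only how far these libraries differ, a spread that may be technical.

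VEGF ligands are secreted dimers that bind receptor tyrosine kinases on endothelial cells. VEGF-A acts mainly through VEGFR2, the product of Kdr, while VEGFR1, the product of Flt1, binds VEGF-A, VEGF-B and placental growth factor tightly but signals weakly and can act as a decoy. VEGF-C and VEGF-D bind VEGFR3, the product of Flt4, which in adult tissue is found mostly on lymphatic vessels, and they also bind VEGFR2 once cleaved. Neuropilins hold the ligands to these receptors and also bind class 3 semaphorins. In mouse lung, alveolar type 1 cells are a main source of Vegfa. Sugen blocks the kinase activity of VEGF receptors, and it has also been described as a ligand of the aryl hydrocarbon receptor, the transcription factor that Ahr encodes.

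The authors' values were normalised read signals per gene, and the depth behind them was estimated at 14.2 to 23.6 M (mega) reads in the Ahr-KO libraries and 12.9 to 21.9 M in the WT libraries. The table numbers the libraries of each group 0, 1 and 2, and the number serves only as a name. Library 2 was the shallowest of each group. Ahr itself read 2399, 3923 and 3575 in Ahr-KO libraries 0, 1 and 2 and 2940.0, 2860.4 and 3395 in WT libraries 0, 1 and 2. These levels overlapped (log2 fold change 0.08 ± 0.18, adjusted p = 0.81 by limma), and the position of the edit is not given, so they leave the labels unchecked. All 5 AHR target genes tested fell, among them Cyp1a1, a cytochrome P450 gene, which was at 10.5, 0.826 and 1.36 in the Ahr-KO libraries and at 27085, 23512 and 37694 in the WT libraries. The lung markers Ager of alveolar type 1 cells and Sftpc of alveolar type 2 cells were read in every library of both groups.

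In Ahr-KO lungs the ligand gene Vegfc fell 1.79-fold and the gene of its receptor, Flt4, fell 1.65-fold, both known for the growth of lymphatic vessels. The ligand gene Pgf rose 1.92-fold. Vegfa was 1.59-fold higher, with every Ahr-KO library above every WT library, but missed the threshold. The receptor genes Kdr and Flt1 and both neuropilin genes did not pass the test. Log2 fold changes compare Ahr-KO with WT after adding 1 to each value and stand with their SE. Folds are these differences taken out of log2, and adjusted p-values come from limma-trend with Benjamini-Hochberg adjustment over 15386 genes. All 10 members passed the filter on low values, and 1 rose, 2 fell and 7 did not pass an adjusted p of 0.05. Across all genes tested, 10.8% passed, 4.50% higher and 6.26% lower in Ahr-KO. The values of the groups did not overlap for 4 of the 10 members, against 34.3% of all genes, so that separation alone was common in this table. The median log2 fold change was 0.09 over the members and 0.0085 over all genes.

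**Figure D1:**
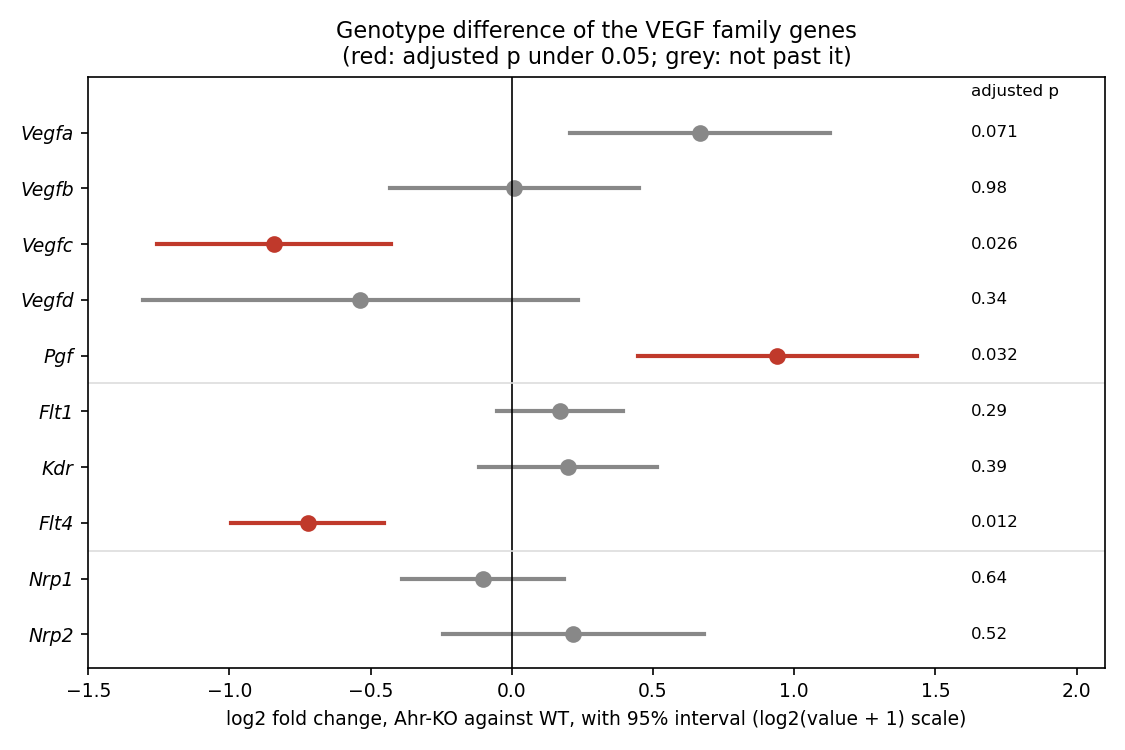
Log2 fold change of the 10 genes between Ahr-KO and WT, from log2(value + 1), on the x axis, with the 95% interval as a line and the adjusted p at the right; ligands stand above the first grey line, receptor kinases above the second and neuropilins below it. Vegfc and Flt4 lie left of 0 and Pgf right of it with adjusted p under 0.05 (red), and the interval of Vegfa, 0.21 to 1.13, also lies right of 0 although its adjusted p is 0.071.

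The upstream sequences of the genes that passed, and of Kdr as the gene with the most matches, are shown. They were searched because AHR binds DNA at a short core, GCGTG, with its partner ARNT. Hypoxia-inducible factors bind a related core, most often but not only ACGTG, so the spelling alone does not tell the factors apart. Each window holds the 250 bases before the start of the gene in RefSeq's GRCr8 annotation, which is not the rn6 build that the authors used, and all 10 members had a window (Vegfa had 2). Both cores were searched on both strands, where they read CACGC and CACGT. The spellings searched differ at the first base, so the same 5 letters cannot match both, although matches may share end letters. Matches are in capitals, 5′ to 3′ on the strand of the gene.
Vegfc, chr16:44560888-44561137 (-): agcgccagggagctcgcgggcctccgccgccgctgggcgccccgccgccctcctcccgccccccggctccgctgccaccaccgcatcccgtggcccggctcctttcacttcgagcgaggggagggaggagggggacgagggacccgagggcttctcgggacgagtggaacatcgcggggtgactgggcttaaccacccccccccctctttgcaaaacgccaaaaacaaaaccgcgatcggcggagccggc
Flt4, chr10:34414584-34414833 (+): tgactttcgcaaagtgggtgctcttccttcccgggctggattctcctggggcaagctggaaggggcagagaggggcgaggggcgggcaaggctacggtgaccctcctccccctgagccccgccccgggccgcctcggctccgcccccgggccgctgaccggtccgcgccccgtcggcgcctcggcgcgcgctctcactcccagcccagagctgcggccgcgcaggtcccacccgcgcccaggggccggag
Pgf, chr6:110557748-110557997 (-): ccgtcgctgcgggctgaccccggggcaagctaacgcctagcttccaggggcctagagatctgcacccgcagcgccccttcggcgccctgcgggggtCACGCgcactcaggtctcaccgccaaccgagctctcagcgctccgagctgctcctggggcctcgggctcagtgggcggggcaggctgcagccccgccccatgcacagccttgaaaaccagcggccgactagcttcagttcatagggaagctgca
Kdr, chr14:32571813-32572062 (+): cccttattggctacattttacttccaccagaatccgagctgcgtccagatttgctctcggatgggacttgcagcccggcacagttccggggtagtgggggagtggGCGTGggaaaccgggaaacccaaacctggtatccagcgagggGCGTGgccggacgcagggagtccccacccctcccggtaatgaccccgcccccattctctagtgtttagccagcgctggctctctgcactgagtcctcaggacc
The windows of Vegfc and Flt4 held no match to either core. Pgf had 1 GCGTG core, read as CACGC 154 bases before the start, and Kdr had 2, at 145 and 103 bases before it. Of the 10 members, 6 had at least 1 GCGTG core (Vegfb, Pgf, Flt1, Kdr, Nrp1 and Nrp2) and 0 had an ACGTG core. Among 33469 RefSeq windows of the same length, 25.9% held GCGTG and 16.6% held ACGTG. The printed windows were rich in G and C, at 72.4% for Vegfc, 76.0% for Flt4, 69.2% for Pgf and 61.6% for Kdr, against a median of 51.2% over all windows. A match of this kind describes the letters, is not a binding site and does not tell which factor could bind. The absence of one covers only this spelling and this window.

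Among the ligands, Vegfc, which encodes the main growth factor for lymphatic vessels, fell. It had values of 275, 236 and 231 in Ahr-KO libraries 0, 1 and 2, against 515, 493 and 343 in WT libraries 0, 1 and 2. Every Ahr-KO value lay below every WT value, and WT library 2 was the WT library nearest to them. Vegfc had a log2 fold change of -0.84 ± 0.18 (95% interval -1.26 to -0.43, adjusted p = 0.026 by limma). The adjusted p missed the threshold when WT library 0 (0.081) or 1 (0.080) was left out, and when Ahr-KO library 1 (0.086) or 2 (0.10) was, with the fold change between -1.03 and -0.74 in all 6 fits that left out 1 library. It missed it too in limma without the mean-variance trend (0.059).

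Vegfd, the related ligand that shares VEGFR3, had values of 330.4, 149.6 and 360.1 in the Ahr-KO libraries, against 415, 448 and 294 in the WT libraries. The groups overlapped, and Ahr-KO library 1 stood apart as the lowest of all 6. The log2 fold change of -0.54 ± 0.33 did not pass (95% interval -1.31 to 0.23, adjusted p = 0.34), and it was -0.14 without Ahr-KO library 1. The interval includes a fall as large as that of Vegfc.

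Pgf, which encodes placental growth factor, a ligand of VEGFR1, rose. Its values were 249, 148 and 199 in the Ahr-KO libraries, against 95, 100.2 and 108 in the WT libraries. All Ahr-KO libraries were above all WT libraries, and the Ahr-KO values were the more spread, with an SD of 25.4% of the mean against 6.35% in WT. Its log2 fold change was 0.94 ± 0.21 (95% interval 0.45 to 1.43, adjusted p = 0.032 by limma). The call was lost in 7 of 16 alternatives, among them when WT library 0 (0.089) or 1 (0.081) was left out, when Ahr-KO library 0 (0.070) or 2 (0.12) was, without both libraries numbered 2 (0.12), and in limma without the mean-variance trend (0.055).

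Vegfa, the chief angiogenic ligand, had values of 28567, 42291 and 43770.2 in the Ahr-KO libraries, against 22809, 28443 and 20370.3 in the WT libraries. No Ahr-KO value fell below a WT value, but Ahr-KO library 0 exceeded WT library 1 only narrowly. The means were 38209 ± 8384 in Ahr-KO and 23874 ± 4140.4 in WT (SD, n = 3 each). The log2 fold change of 0.67 ± 0.20 had a 95% interval of 0.21 to 1.13 and an adjusted p of 0.071, so it did not pass (unadjusted p = 0.0102). Without Ahr-KO library 0 it passed, at 0.86 and an adjusted p of 0.024, and in the other 5 fits that left out 1 library the adjusted p was 0.073 to 0.22.

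Vegfb, a ligand of VEGFR1 and NRP1, did not pass. It read 147, 151 and 156 in the Ahr-KO libraries and 178, 163 and 118 in the WT libraries. The Ahr-KO values lay close together, inside the range of the WT values. Its log2 fold change was 0.01 ± 0.19 (95% interval -0.43 to 0.45, adjusted p = 0.98), and the sign turned with equal library totals (-0.08), in limma-voom (-0.03) and without both libraries numbered 2 (-0.19).

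**Figure D2:**
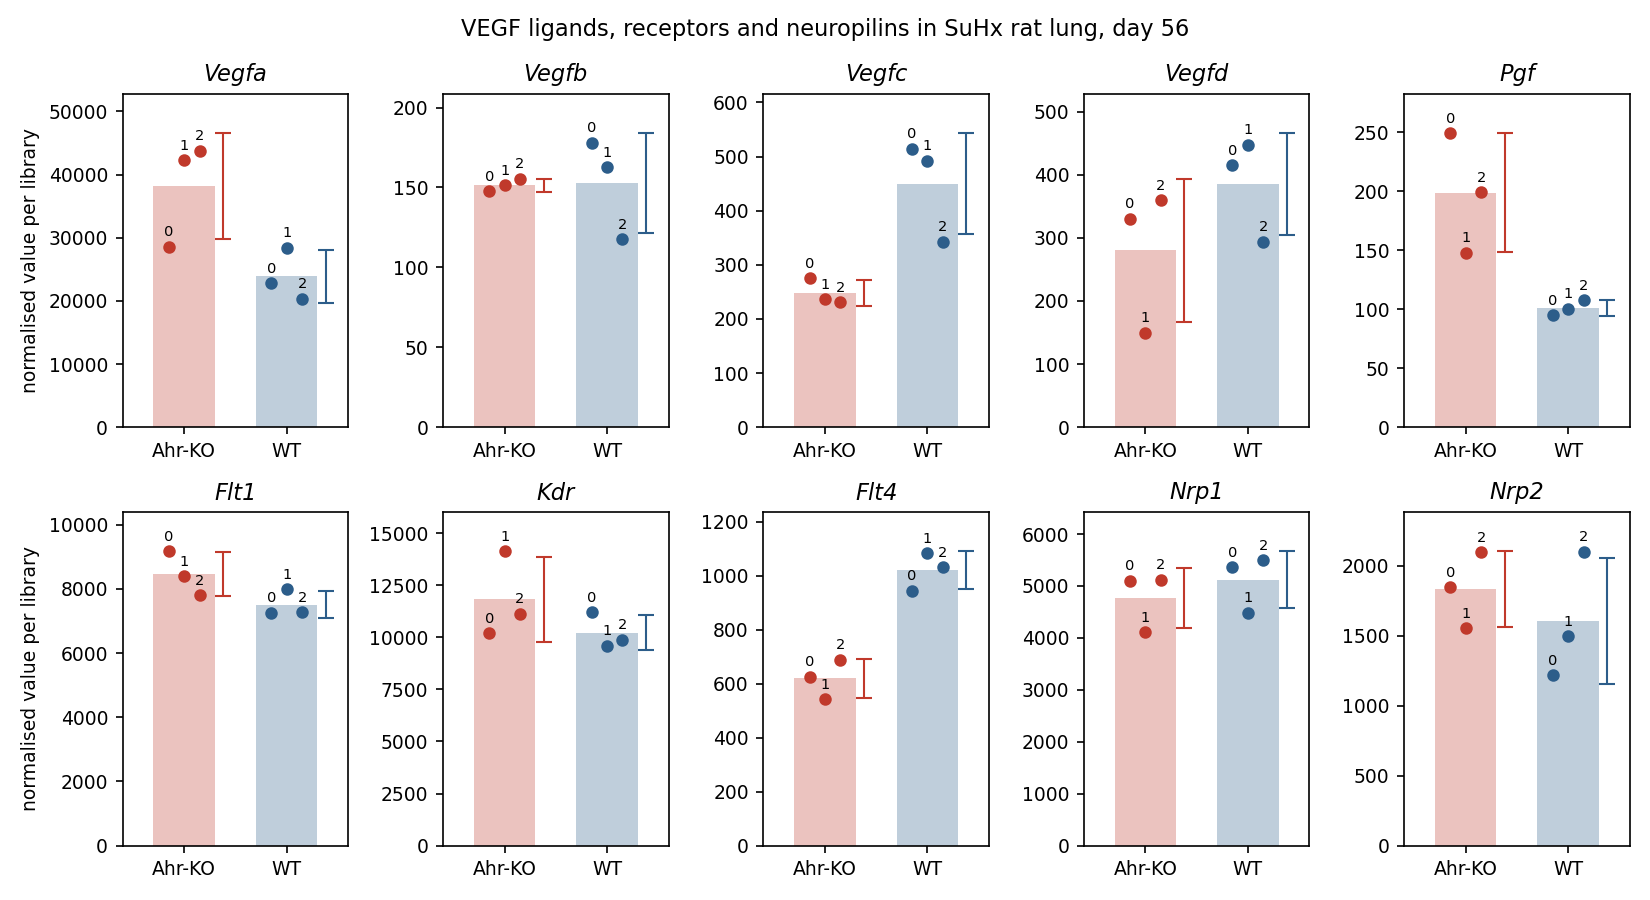
Normalised value (y axis, linear, from 0, each panel on its own scale) of the 10 genes in Ahr-KO (red, left) and WT (blue, right) libraries; points are libraries labelled by their number, bars are means and the error bars beside them are SD (n = 3 each). Vegfa and Pgf values of Ahr-KO all lie above those of WT, Vegfc and Flt4 values all lie below, and the groups overlap in the other panels.

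Among the receptor kinases, Flt4 was the gene that fell. It stood at 626, 542 and 689 in the Ahr-KO libraries, against 945, 1083 and 1031 in the WT libraries. The highest Ahr-KO value was well below the lowest WT value, and the spread within each group was small (619 ± 73.6 in Ahr-KO and 1019.6 ± 70.0 in WT, SD, n = 3 each). Its log2 fold change was -0.72 ± 0.12 (95% interval -0.995 to -0.452, adjusted p = 0.012 by limma). This call held in each of the 16 alternatives run, with adjusted p of 0.019 to 0.045 in the 6 fits that left out 1 library.

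Kdr, which encodes the main signalling receptor for VEGF-A, read 10208, 14119 and 11139.7 in the Ahr-KO libraries and 11194, 9592 and 9891 in the WT libraries. The groups overlapped, and Ahr-KO library 1 was the highest of all. The log2 fold change was 0.20 ± 0.14 (95% interval -0.12 to 0.51, adjusted p = 0.39). Flt1, the gene of the high-affinity receptor VEGFR1, read 9165, 8391 and 7809.8 in the Ahr-KO libraries and 7255, 7987 and 7263 in the WT libraries. Its groups overlapped by 1 library on each side, and the log2 fold change was 0.17 ± 0.10 (95% interval -0.05 to 0.39, adjusted p = 0.29). The intervals of Kdr and Flt1 exclude a change as large as the 1.65-fold fall of Flt4 in either direction. A gene-level value does not separate the soluble form of VEGFR1 from the membrane form, nor the splice forms of VEGF-A.

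Neither neuropilin gene passed. Nrp1, a co-receptor for VEGF-A in blood vessel endothelium, read 5098, 4105 and 5121 in the Ahr-KO libraries and 5366, 4486 and 5495 in the WT libraries. Library 1 was the lowest of each group, and the log2 fold change was -0.10 ± 0.12 (95% interval -0.39 to 0.19, adjusted p = 0.64). Nrp2, a co-receptor for VEGF-C that lymphatic and venous endothelium carry, read 1847, 1556 and 2097 in the Ahr-KO libraries and 1219, 1496 and 2101 in the WT libraries. All Ahr-KO values lay inside the WT range, and the log2 fold change was 0.22 ± 0.20 (95% interval -0.24 to 0.68, adjusted p = 0.52). In RefSeq's GRCr8 annotation Flt1 overlaps 3 pseudogene or long non-coding RNA genes, and Vegfd, Nrp1 and Nrp2 overlap 1 each. As the strand setting of the counting is not given in the sources used here, reads of such neighbours cannot be told apart from theirs.

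**Figure D3:**
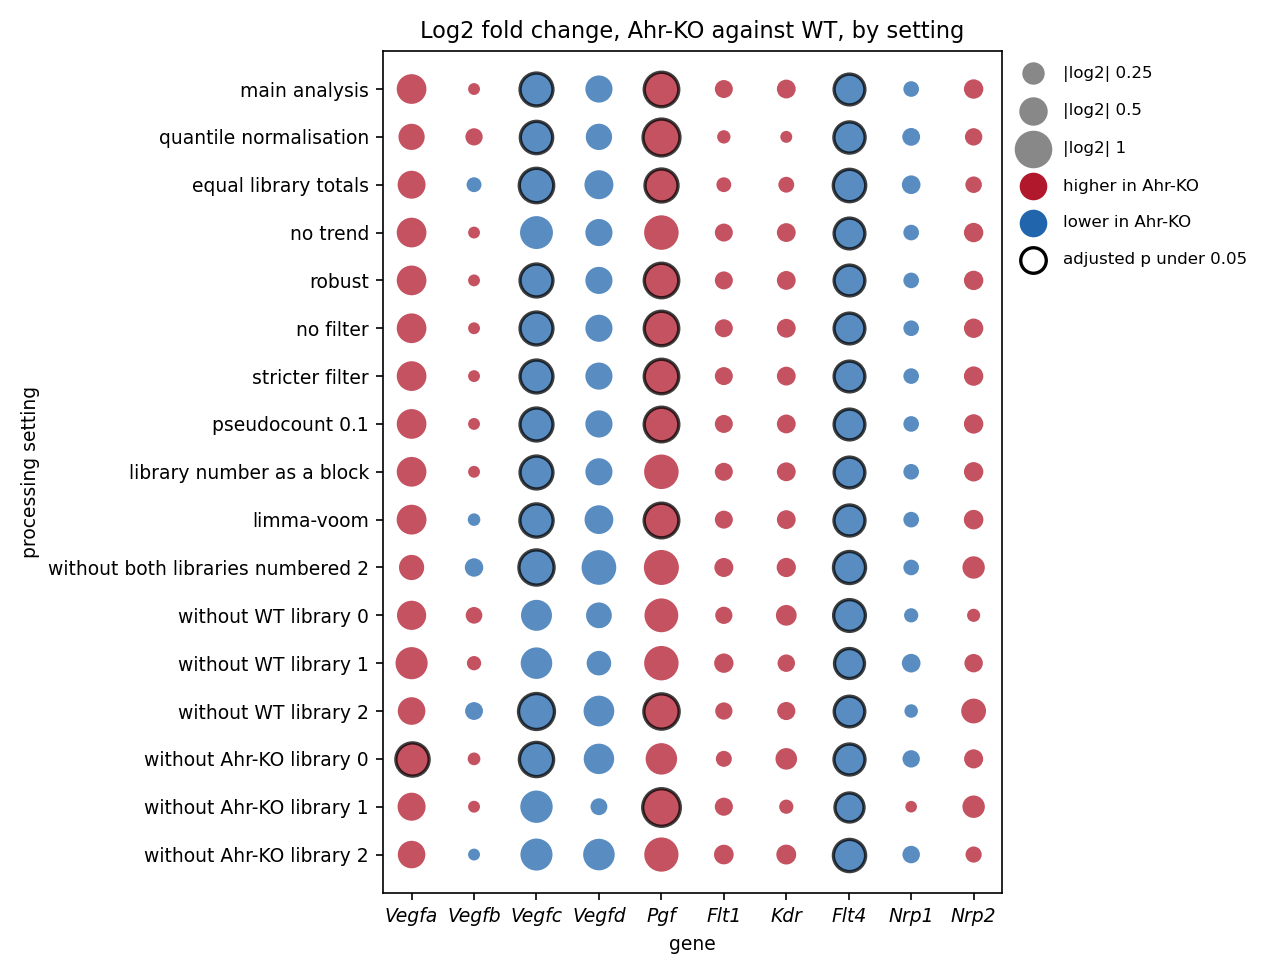
Log2 fold change, Ahr-KO against WT, of the 10 genes (columns) under the main analysis and 16 alternatives (rows); circle area grows with its size, red is higher and blue lower in Ahr-KO, and a black ring marks an adjusted p under 0.05. Flt4 is ringed in every row, Vegfc in 12 and Pgf in 10 of the 17 rows including the main one, and Vegfa in 1.

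The receptor genes were set against markers of the cells that carry them, since in bulk lung fewer cells of a type and less RNA per cell cannot be told apart. Of 13 lymphatic endothelial markers 4 fell, none rose and 9 did not pass, with a median log2 fold change of -0.57. The lymphatic regulator gene Prox1 had values of 8.87, 11.6 and 6.82 in the Ahr-KO libraries, against 40.0, 18.1 and 44.8 in the WT libraries (log2 -1.73 ± 0.42, adjusted p = 0.038 by limma). Prox1 carried few reads and lost its call in 10 of 16 alternatives. The chemokine gene Ccl21, made by lymphatic vessels and lymphoid stroma, fell to 1966 ± 644 in Ahr-KO, against 6513 ± 1805 in WT (SD, n = 3 each). Its adjusted p was 0.0096, and it was 0.051 without Ahr-KO library 2. Thy1, which other cells such as fibroblasts also express, fell 5.72-fold (adjusted p = 0.0021 by limma). The venous and lymphatic factor gene Nr2f2 fell 1.48-fold (adjusted p = 0.043 by limma, lost in 8 of 16 alternatives). With 1 library left out, 1 to 4 of these markers fell. The count that fell was 2 without WT library 0 or Ahr-KO library 1 and 1 without Ahr-KO library 2, and 1 marker rose without WT library 1. Lyve1, a hyaluronan receptor gene that macrophages also express, did not pass, at 9884, 4661 and 5076 in the Ahr-KO libraries and 5620.0, 5106 and 5679 in the WT libraries.

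The summed level of the lymphatic list was 25916 to 30236 in Ahr-KO and 25514 to 30897 in WT, so the sums overlapped. Pdpn and Lyve1, which other lung cells also express, made up most of it, and Stab2 was at 0 in 1 library. Taken gene by gene, the mean log2 value of the list was 0.60 lower in Ahr-KO. Flt4 minus that mean was 1.03, 0.96 and 1.41 in Ahr-KO libraries 0, 1 and 2 and 1.09, 1.49 and 1.21 in WT libraries 0, 1 and 2. The groups overlapped on this relative scale, with a difference of -0.13 (exact permutation p = 0.5, 2-sided, smallest possible 0.1). Nrp2 minus the same mean was 2.59, 2.48 and 3.02 in the Ahr-KO libraries and 1.46, 1.95 and 2.24 in the WT libraries. These did not overlap, with a difference of 0.81 (exact permutation p = 0.1, the smallest the design allows). The list mean includes Thy1 and Ccl21, which other cells also express and whose log2 fold changes of -2.515 and -1.735 lowered it. The median log2 fold change of the list was -0.57. Flt4 was not set against a list without these genes, nor against the markers of blood endothelium. The part of lymphatic cell number in the lower Flt4 and Vegfc levels was not tested.

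Blood endothelial markers moved in both directions. Of 18 pan-endothelial markers 5 rose, 1 fell and 12 did not pass. Those with the lowest p were Ramp2, the adrenomedullin receptor partner (1.66-fold higher, adjusted p = 0.011), Adgrf5, an adhesion receptor (1.95-fold higher, adjusted p = 0.016), and Tek, the angiopoietin receptor (1.85-fold higher, adjusted p = 0.016). Their summed level was 155609.0 to 176611 in Ahr-KO and 110447 to 122933 in WT, without overlap, and no marker was at 0. The count of those that rose was 1 when WT library 0 or Ahr-KO library 2 was left out, 2 when Ahr-KO library 1 was and 3 when Ahr-KO library 0 was, and the fall was called only in the fit without WT library 2 among those that left out 1 library. Of 13 capillary markers 4 rose, among them Prx (2.45-fold) and the carbonic anhydrase gene Car4 (2.40-fold), and 2 fell, among them Cd93 (1.77-fold), with adjusted p of 0.0054, 0.0091 and 0.012 (that of Cd93 0.058 without Ahr-KO library 2). In that fit 2 capillary markers rose and 0 fell, and 1 fell without any 1 of the other libraries except WT library 2. The summed capillary level was 70183 to 77390 in Ahr-KO and 67492 to 73712 in WT, which overlapped. Of 12 arterial and venous markers 2 fell, the connexin gene Gja5 (1.97-fold, adjusted p = 0.0077) and the adhesion molecule gene Vcam1 (2.32-fold, adjusted p = 0.0083), and their summed level also overlapped.

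Relative to the mean of the pan-endothelial markers, which was 0.29 higher in Ahr-KO on the log2 scale, the mean of each of Nrp1, Flt1 and Kdr was lower in Ahr-KO than in WT. Nrp1 minus that mean was -0.21, -0.41 and -0.10 in the Ahr-KO libraries and 0.21, -0.06 and 0.32 in the WT libraries. These groups did not overlap, with a difference of -0.40 (exact permutation p = 0.1, the smallest possible). Flt1 minus that mean was 0.64, 0.62 and 0.50 in the Ahr-KO libraries and 0.64, 0.77 and 0.72 in the WT libraries. The highest Ahr-KO value nearly equalled the lowest WT value without passing it, and the difference was -0.12 (exact permutation p = 0.1, the smallest possible). For Kdr the values were 0.80, 1.37 and 1.02 in the Ahr-KO libraries and 1.27, 1.03 and 1.17 in the WT libraries, which overlapped (difference -0.10, exact permutation p = 0.6, and 0.04 in the difference without Ahr-KO library 0). Against the capillary list in place of the pan-endothelial one the differences kept their sign, at -0.55 for Nrp1, -0.28 for Flt1 and -0.25 for Kdr.

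Vegfa was set against the alveolar type 1 markers in the same way. Of 15 such markers 8 rose, none fell and 7 did not pass, with a median log2 fold change of 0.71. Leaving out Ahr-KO library 2 left 2 that rose, leaving out Ahr-KO library 1 left 4, and leaving out WT library 0 left 5. In the fit without WT library 2, 1 of these markers fell. The basement membrane collagen gene Col4a3 was 3.06-fold higher (adjusted p = 0.0060), the transcriptional cofactor gene Hopx 2.10-fold (adjusted p = 0.0071) and the anchoring protein gene Akap5 2.19-fold (adjusted p = 0.011). The summed level was 285749 to 318044 in Ahr-KO and 170623 to 206528 in WT, without overlap and with no marker at 0. The mean log2 level of the list was 0.70 higher in Ahr-KO, close to the 0.67 of Vegfa. Vegfa minus the list was 1.65, 2.11 and 2.15 in the Ahr-KO libraries and 2.12, 2.18 and 1.71 in the WT libraries. The groups overlapped on this scale (difference -0.03, exact permutation p = 0.6), and the part of alveolar type 1 RNA in the Vegfa values was not tested. Of 11 alveolar type 2 markers measured 1 rose, Etv5, a transcription factor gene (1.62-fold, adjusted p = 0.019), and none fell. The call of Etv5 was lost in 5 of 16 alternatives, among them without WT library 0 or Ahr-KO library 2, and 3 of the list rose without WT library 2. Their summed level was 692121 to 812674 in Ahr-KO and 559194 to 629420.0 in WT.

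**Figure D4:**
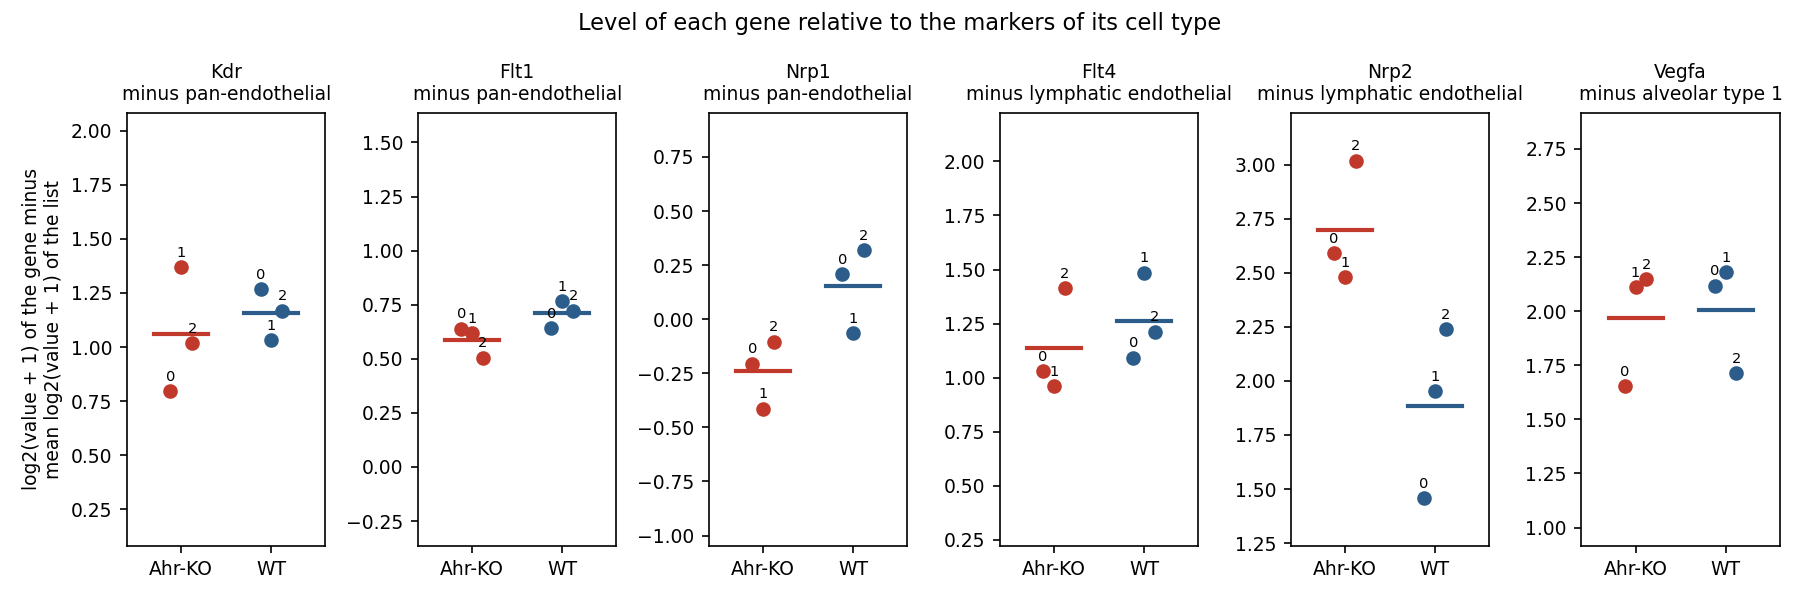
Log2(value + 1) of a gene minus the mean log2(value + 1) of its cell type's marker list (y axis, each panel spanning 2 log2 units) in Ahr-KO (red, left) and WT (blue, right) libraries; points are libraries labelled by number and lines are group means. Nrp1 lies lower and Nrp2 higher in Ahr-KO relative to their lists without overlap, the Flt1 groups all but meet, and Kdr, Flt4 and Vegfa overlap.

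Other candidate sources of the ligands and relays also differed between groups. Of 13 fibroblast markers 5 fell and none rose, led by the collagen genes Col1a1 (2.60-fold) and Col14a1 (2.82-fold) and the ligand gene Wnt2 (1.99-fold), with adjusted p of 0.0034, 0.0054 and 0.0068. Their summed level was 34664 to 43984 in Ahr-KO and 54512 to 65421 in WT, without overlap, and 3 fell when Ahr-KO library 1 or 2 or WT library 0 was left out. Of 8 mesothelial markers 1 rose, the keratin gene Krt19 that epithelium also expresses (1.94-fold, adjusted p = 0.0054), and 1 fell, Gpm6a (1.45-fold, adjusted p = 0.030, lost in 7 of 16 alternatives, among them without WT library 0 or 1 or Ahr-KO library 1 or 2). The summed mesothelial level was 11666 to 13725 in Ahr-KO and 7399.6 to 9550.2 in WT, without overlap, while the median log2 fold change of the list was negative, at -0.43. None of 9 pericyte or 8 smooth muscle markers passed limma-trend or limma-voom (2 and 3 at an unadjusted p under 0.05), although 1 pericyte marker fell without WT library 2. Markers of T cells fell in 7 of 9, of B cells in 4 of 7 and of macrophages and monocytes in 5 of 11 cases, and their summed levels were lower in Ahr-KO without overlap. The T cell count was 3 when Ahr-KO library 1 or 2 or WT library 0 was left out, and the B cell count was 2 without Ahr-KO library 2. Of 8 airway markers 2 fell and of 7 skeletal muscle markers 1 fell, while none of 8 cardiac markers passed limma-trend or limma-voom (0 at an unadjusted p under 0.05). The skeletal gene was below the filter on low values without any 1 WT library, the airway count was 0 without WT library 0 or 1 or Ahr-KO library 2 and 1 without WT library 2 or Ahr-KO library 0, and the summed levels of these 3 lists overlapped. The part of these cell types in the levels of Vegfc, Vegfd and Pgf was not tested.

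Downstream of the receptors, 45 genes of signalling relays were measured, of which 2 rose, 3 fell and 40 did not pass, with a median log2 fold change of -0.03. Those that rose were Plcg1, the phospholipase that VEGFR2 binds, and Gab1, a docking protein. Plcg1 read 12587, 12612 and 15774 in the Ahr-KO libraries, against 9289, 10433 and 9283 in the WT libraries (log2 0.49 ± 0.12, adjusted p = 0.039 by limma). Plcg1 was named after its values were seen. Gab1 was 1.38-fold higher (adjusted p = 0.035). Each of these rises lost its call in 10 of 16 alternatives, among them quantile normalisation, equal library totals and the fits without WT library 0 or 1 or Ahr-KO library 1 or 2. The call of Plcg1 was also lost without WT library 2 and that of Gab1 without Ahr-KO library 0.

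The relay genes that fell were the kinase genes Prkcb (2.45-fold, adjusted p = 0.011) and Fyn (1.60-fold, adjusted p = 0.011) and Sh2d2a (2.30-fold, adjusted p = 0.016). Sh2d2a encodes an adaptor of VEGFR2 that was named for its role in T cells, and all of these are strongly expressed in lymphocytes. The summed T cell marker level was 823 to 1070.3 in Ahr-KO and 1792 to 2385 in WT, with Cd5 and Cd28 at 0 in some library, and the part of lymphocytes in the fall of these genes was not tested. Their calls were lost without both libraries numbered 2 and without Ahr-KO library 2, and that of Sh2d2a also without WT library 0 or Ahr-KO library 1. Nos3, the endothelial nitric oxide synthase gene, read 753, 760.3 and 749 in the Ahr-KO libraries and 884, 1254 and 997 in the WT libraries and did not pass (adjusted p = 0.068).

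Of 25 genes known to respond to VEGF in endothelial cells 1 rose, 6 fell and 18 did not pass, with a median log2 fold change of -0.28. Across all genes tested, 4.50% were called higher and 6.26% lower. The endothelial adhesion gene Sele had the lowest p of the list, with values of 16.9, 43.0 and 21.8 in the Ahr-KO libraries, against 197, 154 and 225 in the WT libraries (log2 -2.87 ± 0.35, adjusted p = 0.0054 by limma). Vcam1 fell as given above. The immediate early factor gene Egr3 fell 7.81-fold (adjusted p = 0.016), at low values of 4.03, 5.79 and 1.36 in the Ahr-KO libraries and 53.0, 18.1 and 36.4 in the WT libraries. The other genes that fell were Egr1, Egr2 and the metalloprotease gene Adamts1, named after their values were seen (adjusted p = 0.021, 0.020 and 0.023 by limma). Their calls were lost in 6, 4 and 6 of 16 alternatives, that of Egr1 also in limma-voom and without any 1 Ahr-KO library. The protease gene Plau, urokinase, rose 1.83-fold (adjusted p = 0.017). The call of Egr3 was lost without WT library 0 or Ahr-KO library 2, and that of Plau without Ahr-KO library 1 or 2. Without Ahr-KO library 1 or 2, 3 of the list fell. The part of VEGF signalling, or of cells other than endothelium, in the levels of these genes was not tested.

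Several genes of endothelial tip cells, which lead sprouts under VEGF, were not among those that passed. Esm1, which encodes endocan, read 1082, 1082 and 930.4 in the Ahr-KO libraries and 992, 1024 and 1210.0 in the WT libraries (log2 -0.06 ± 0.11, 95% interval -0.32 to 0.20). The Notch ligand gene Dll4 had a log2 fold change of 0.19 ± 0.13 and the peptide gene Apln 0.13 ± 0.28, with adjusted p of 0.36 and 0.80. The angiopoietin gene Angpt2 had -0.38 ± 0.22 (adjusted p = 0.32). Without both libraries numbered 2, 0 of the 25 VEGF-responsive genes passed limma, although 12 were at an unadjusted p under 0.05.

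Genes that drive transcription of the ligands in low oxygen are another part of the pathway. Of 13 genes of oxygen sensing and ligand transcription 0 passed limma, with 4 at an unadjusted p under 0.05 and 1 called after quantile normalisation. Hif1a read 1846, 1732 and 1492 in the Ahr-KO libraries and 1657, 1601 and 2096 in the WT libraries (log2 -0.07 ± 0.13, 95% interval -0.38 to 0.23). Epas1, the gene of HIF-2 alpha, read 47233, 39238 and 41826 in the Ahr-KO libraries and 34358, 33899 and 36449 in the WT libraries. Its Ahr-KO values were all above its WT values, with a log2 fold change of 0.29 ± 0.12 that did not pass (adjusted p = 0.17). Of 23 endothelial transcription factor genes tested 2 fell, Prox1 and Nr2f2, and none rose. The count that fell was 0 without WT library 0 or any 1 Ahr-KO library and 1 without WT library 1. However, 1 rose without WT library 1 or Ahr-KO library 0, and 2 rose without WT library 2. With library number as a block 1 rose and 0 fell.

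Of 19 genes for VEGF processing and binding outside the cell, 2 rose, 2 fell and 15 did not pass. Thbs2, which encodes the angiogenesis inhibitor thrombospondin-2, fell. Its values were 79.0, 64.5 and 53.2 in the Ahr-KO libraries, against 479.8, 501 and 522 in the WT libraries (log2 -2.93 ± 0.18, adjusted p = 0.00051 by limma). Adamts14, a procollagen protease gene, fell 2.43-fold (adjusted p = 0.013). Hspg2, the gene of perlecan, a heparan sulfate proteoglycan that binds VEGF-A, read 9047, 8526 and 10771 in the Ahr-KO libraries, against 4874, 5329 and 4813 in the WT libraries (log2 0.91 ± 0.11, adjusted p = 0.0054 by limma). The calls of Thbs2, Adamts14 and Hspg2 held in each of the 16 alternatives. Ndst1, a heparan sulfate sulfotransferase gene, rose 1.85-fold (adjusted p = 0.035), a call lost in 6 of 16 alternatives: after quantile normalisation, without the mean-variance trend, and without WT library 1 or any 1 Ahr-KO library. Ccbe1 and Adamts3, genes for the machinery that cleaves VEGF-C, did not pass, while Adamts14, listed with them for VEGF processing, fell as given above. The log2 fold changes of Ccbe1 and Adamts3 were -0.41 ± 0.23 and 0.63 ± 0.34 (adjusted p = 0.30 and 0.27 by limma).

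Of 12 class 3 semaphorin and plexin genes, whose products share the neuropilins, 3 rose, 3 fell and 6 did not pass. Sema3g, a semaphorin of arterial endothelium in the mouse, rose to 10664, 12212 and 13000.4 in the Ahr-KO libraries, against 6631, 6421 and 6102 in the WT libraries (log2 0.90 ± 0.10, adjusted p = 0.0043 by limma). Sema3b rose 1.75-fold and the receptor gene Plxna1 1.80-fold (adjusted p = 0.013 and 0.016). Plxna4 fell 1.98-fold (adjusted p = 0.0085). The other genes that fell were Sema3d and Plxnd1, named after their values were seen (adjusted p = 0.039 and 0.045). Each of them lost its call in 8 of 16 alternatives, among them the fits without any 1 WT library or without Ahr-KO library 1 or 2. The calls of Sema3g and Plxna4 held in each of the 16 alternatives, and those of Sema3b and Plxna1 were lost without Ahr-KO library 2 and without both libraries numbered 2, that of Plxna1 also without Ahr-KO library 1 and without the mean-variance trend.

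Sugen also inhibits kinases outside the VEGF family. Of 5 such kinase genes 1 rose, Kit, the stem cell factor receptor, at 3641, 3116 and 3185 in the Ahr-KO libraries, against 1305, 809.7 and 1105 in the WT libraries (log2 1.65 ± 0.17, adjusted p = 0.0034 by limma). That call held in each of the 16 alternatives. Ret and Flt3 missed the threshold at adjusted p of 0.059 and 0.089, with log2 fold changes of 0.60 ± 0.17 and -0.78 ± 0.25. Csf1r and Pdgfrb had adjusted p of 0.16 and 0.82.

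**Figure D5:**
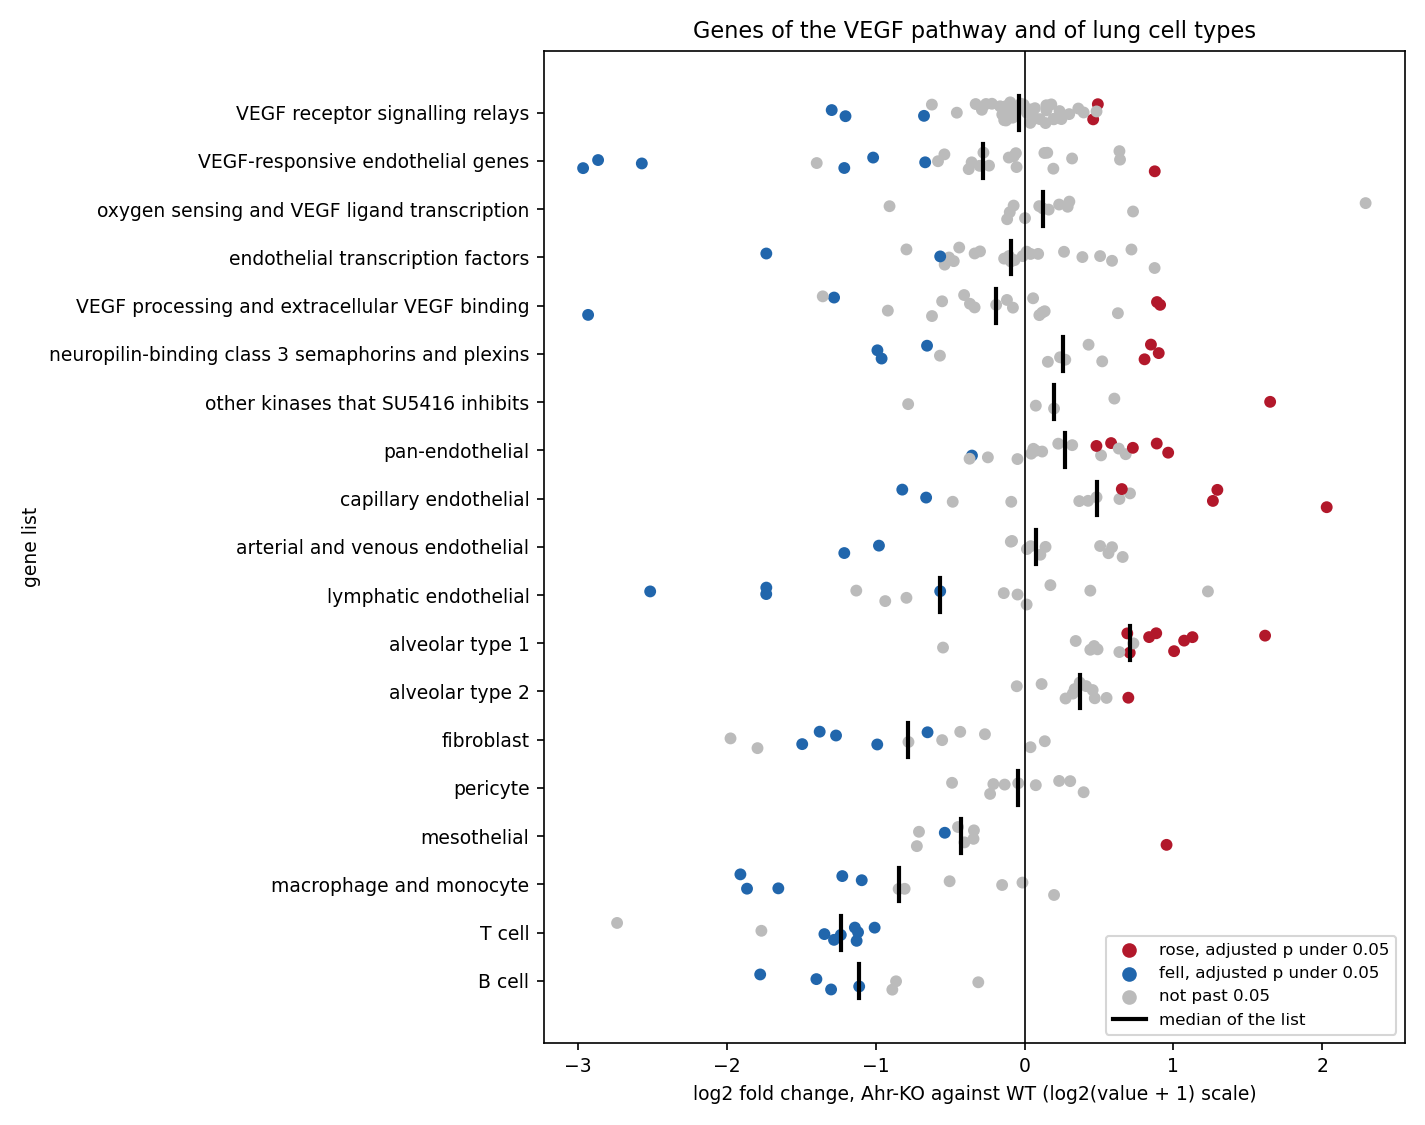
Log2 fold change between Ahr-KO and WT, from log2(value + 1), on the x axis for each tested gene of the lists shown (rows). Rows are the pathway and cell type lists, without those of cardiac muscle, skeletal muscle, airway epithelium and smooth muscle. Red rose and blue fell at an adjusted p under 0.05, grey did not pass, and a black bar is the median of the list. The median of the alveolar type 1 list lies right of 0, at 0.71, and those of the lymphatic, fibroblast, macrophage, T cell and B cell lists lie left of it, at -0.57, -0.78, -0.85, -1.23 and -1.11.

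The genes whose pattern over the 6 libraries was most like that of a member were sought among the others with a mean value of at least 100 (11132 genes), by the root mean square difference of log2 values centred on their means. For Flt4, which itself varied by 0.38, they were Pcolce (0.070), a procollagen processing enhancer, Arl15 (0.083) and Kremen1 (0.089). For Vegfa, which varied by 0.41, they were Radil (0.043), Letm2 (0.071) and the platelet-derived growth factor gene Pdgfa (0.083). For Kdr, which varied by 0.18, they were Tada2a (0.052), the histone gene H3f3b (0.058) and Dtwd1 (0.066). Vegfd, which varied by 0.52, had no pattern as close, with Sik1 (0.19), Mfsd2a (0.21) and Plaur (0.21). These likenesses describe 6 libraries of 2 genotypes and carry no test.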

How the data were processed

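Total lung RNA of 3 Ahr-KO and 3 WT SuHx samples was sequenced, 1 library per sample. Per the submitters' processing notes FastQC and the genome build rn6 were used. Aligner, counter, annotation and strand setting: not given in the sources used here. What the authors deposited is 1 table of normalised signal per gene symbol and library. In each library 97.4% to 97.9% of values above 0 were whole multiples, within 0.05, of a step of 0.806 to 1.40, which was taken as the value of 1 read. The rest were fractions, so the test planned for counts was not run. Columns show the genotype but number libraries from 0, whereas titles count from 1, so they were assigned to groups. There were 0 unused columns of values. Every pair of libraries differed by more than sampling noise (lowest chi-square per gene 15.4).

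The filter kept genes that reached 1 in 3 or more libraries. On log2(value + 1), limma 3.58.1 (R 4.3.3) compared the genotypes, 2-sided, with a mean-variance trend and no other term. Members were not compared in level with each other, since transcript lengths were not at hand. The code was tested on simulated data. The members, the 24 gene lists and the tests were chosen with earlier results of these data known. Genes named were the members, Ahr and its targets, up to 4 of each pathway list and 3 of each marker list with the lowest p among those past 0.05, the most abundant where none passed, and the most like patterns; other genes were chosen after their values were seen, and not all that the rule gave are reported by name. Alternatives were other scalings, filters, pseudocounts and limma variants, a replicate block and leaving out libraries.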

Additional observations from a re-analysis of the deposited data

How the results depend on the processing

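Flt4 fell under each of the 16 alternatives, Vegfc kept its direction in all 16 and its call in 11, and Pgf kept its direction in all 16 and its call in 9. Leaving out 1 library gave 1 to 3 of the 10 members past the threshold, 407 to 1834 of all genes, and 21 to 45 list genes lower and 9 to 31 higher. Limma without the trend called 1 member, 952 genes and 17 list genes higher. Without both libraries numbered 2, 553 genes were called, with 18 list genes lower and 17 higher. At an adjusted p under 0.10, 2853 genes passed. With equal library totals 25.5% of the calls were higher, against 41.8% in the main analysis, and the median of all genes was -0.082. Signs changed for small differences and for the cardiac gene Myh6, which had a log2 fold change of -2.175 in the main analysis. Vegfb stood at -0.081 with equal library totals, -0.025 in limma-voom, -0.19 without both libraries numbered 2 and -0.17 to 0.13 when 1 library was left out, and Nrp1 at -0.19 to 0.0040 in those last fits. Ahr stood at -0.012 after quantile normalisation and -0.012 with equal totals (-0.061 to 0.29 with 1 library left out), and Pdgfrb at -0.012, -0.016 and, without both libraries numbered 2, -0.19 (-0.094 to 0.21). Actc1 ranged over -0.098 to 0.71 and Myh6 over -3.89 to 0.91, with Myh6 at 2.22 without both libraries numbered 2. Relative to their marker lists, Kdr ranged over -0.25 to 0.037 and Vegfa over -0.18 to 0.13 with 1 library left out. The cause of these changes was not tested. The same library number did not pair the libraries (correlations of deviations -0.100, 0.0687 and -0.0738). With the replicate block 899 genes passed, Flt4 and Vegfc kept their calls (adjusted p = 0.037 and 0.039) and Pgf did not (0.065). The edgeR test was not run because whole reads could not be recovered. Limma-voom was run on the values divided by the estimated value of 1 read, fractions included. Depth limits genes of few reads, such as Egr3, whose Ahr-KO values were 1.36 to 5.79 where 1 read was worth 0.806 to 1.40.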
